A study of Mus musculus with 11 samples.

Results

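The clustered protocadherin genes lie in 3 arrays, alpha, beta and gamma, side by side on mouse chromosome 18, and cohesin was examined across them by chromatin immunoprecipitation followed by sequencing (ChIP-seq). The members described here are all peaks of the 8 ChIP lists that overlap chromosome 18 from 36900000 to 38100000 (mm9), a window of 1.2 Mb chosen to hold the 3 arrays. They number 129 of 162241 peaks. The cells were fibroblasts cultured from mouse embryos (MEFs) at E12.5, of strain C57BL/6 x 129 Sv, and none were treated. One genotype was wild type and the other SA1-null, and each was immunoprecipitated with antibodies against SA1, SA2, SMC1 and SMC3. Both input libraries pool DNA of the 2 genotypes. Each list stands for 1 library, except that of SMC1 in SA1-null cells, which takes 2 replicates together. Nothing in the labels tells if libraries came from different embryos or cell cultures.

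The lists hold intervals without a height or score, and sequencing depth is unknown. With 1 list per group there was no replicate spread and no test between genotypes. Intervals given below (95% Wilson for shares, exact Poisson for densities, exact binomial for ratios) cover the counting of peaks in these lists and nothing else. List lengths depend on depth and enrichment, so the lack of a peak does not show that the protein was missing there.

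Clustered protocadherins are cell-surface proteins of the cadherin family, best known from neurons, where each cell uses its own set of them as an identity label. In the alpha and gamma arrays each variable exon has a promoter of its own and is spliced to exons shared by the whole array, whereas each beta gene is a single exon. The insulator protein CTCF and cohesin bind at many of these promoters and at distant enhancers and are known to bring them together. Cohesin is a ring of SMC1, SMC3 and a kleisin that carries either SA1 or SA2. Of the 58 genes, 58 were found by symbol in a RefSeq gene table of another build (GRCm38.p6), 14 in the alpha, 22 in the beta and 22 in the gamma array. Along the chromosome the table runs from Pcdha1 to Pcdhac2, Pcdhb1 to Pcdhb22 and Pcdhga1 to Pcdhgc5. Zmat2 comes before the alpha array, Slc25a2 follows the beta array, Taf7 precedes the gamma array and Diaph1 follows it. The lists name no genes and the table is of another build, so peaks were not assigned to single genes and the label of the window could not be checked against the data.

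The window held more SA1 peaks than peaks of any other wild-type list, and SMC1, SMC3 and SA2 had fewer peaks per Mb in it than in the 1 Mb on each side. How the window compared with its surroundings varied with how far the flanks reached. Wild-type cells had 34 SA1 peaks in the window, against 2 of SA2, 16 of SMC1 and 10 of SMC3. In SA1-null cells the counts were 35 of SMC1, 28 of SMC3 and 4 of SA2. The SA1 antibody gave 0 peaks in SA1-null cells, which allows up to 1.69% of that list's 177 peaks, and it overlapped 0 of the 34 wild-type SA1 peaks (against 0.0451% of the whole SA1 list). Of 2141 other windows of equal size, 2085 (97.4%) also held 0 peaks of this list, so the count is not particular to the window. This list was called against another input than the wild-type SA1 list. In the 1 Mb on each side, added up, the wild-type counts were 46 for SA1, 46 for SMC1, 35 for SMC3 and 14 for SA2. The SA1-null counts there were 81 for SMC1, 67 for SMC3, 10 for SA2 and again 0 for SA1. SA1 was thus as numerous as wild-type SMC1 beside the window only with both sides added. It had 23 peaks to 28 on the left and 23 to 18 on the right. Within the window SA1 outnumbered wild-type SMC1.

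**Figure D1:**
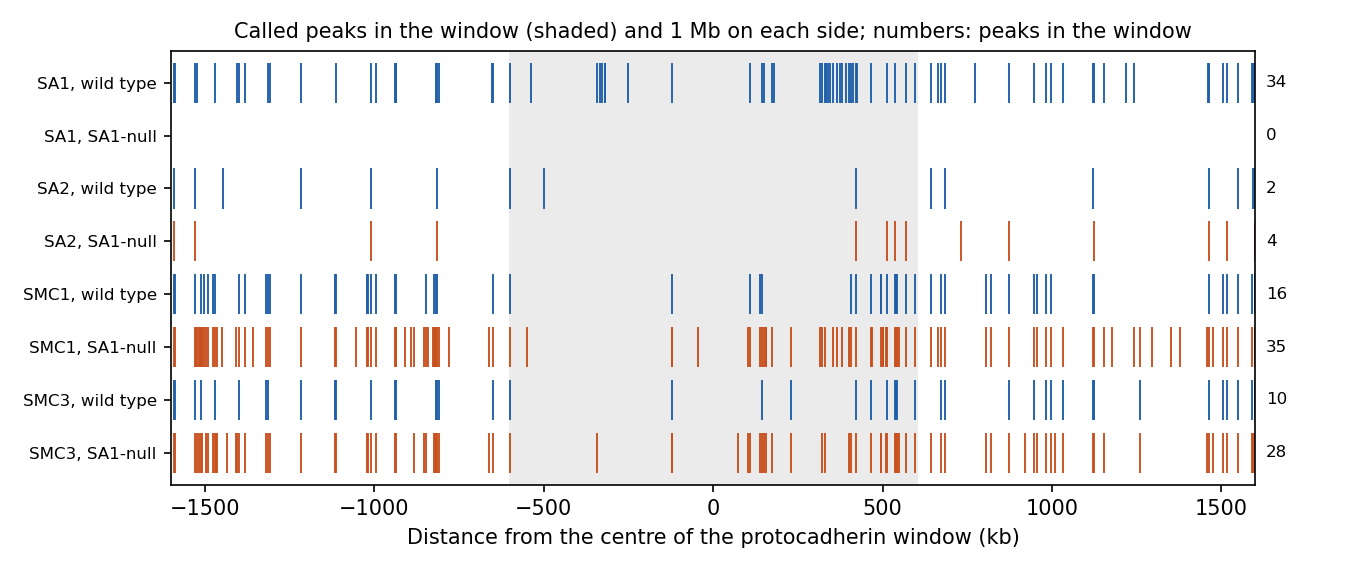
Peaks of the 8 ChIP lists along 3.2 Mb, one row per list, as a function of distance in kb from the centre of the protocadherin window (shaded). Each tick is 1 peak, blue for wild type and orange for SA1-null, and the numbers at the right count peaks in the window, from 34 for wild-type SA1 to 0 for SA1-null SA1.

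SA1 density in the window was 28.3 peaks per Mb (interval 19.6 to 39.6), 1.23 times that of the flanks (interval 0.767 to 1.96). With these flanks the other 6 lists fell below 1. The ratio of window to flanks was 0.580 (0.306 to 1.04) for wild-type SMC1, 0.476 (0.210 to 0.983) for wild-type SMC3 and 0.238 (0.0263 to 1.04) for wild-type SA2. For SA1-null cells it was 0.720 (0.470 to 1.08) for SMC1, 0.697 (0.431 to 1.10) for SMC3 and 0.667 (0.153 to 2.31) for SA2. The flanks were themselves dense: SA1 reached 23 peaks per Mb there against 10.4 over all chromosomes, and wild-type SMC1 23 against 9.34. Of the intervals of these 7 ratios, that of wild-type SMC3 alone excluded 1. With flanks of 3 Mb on each side the SA1 ratio was 1.79 (1.17 to 2.67), and wild-type SMC1 and SMC3 were at 0.899 and 0.769 (0.352 to 1.51 for SMC3). SMC3 and SA2 of SA1-null cells turned to 1.04 and 1.11 with those flanks. Among the widest 50% of each list, SA1 turned to 0.797 (11 peaks in the window, with an interval that held 1) and SA2 of SA1-null cells to 1.67 (3 peaks). As a share of each list, the window took 0.128% of all SA1 peaks (interval 0.0915 to 0.179%), 0.0667% of wild-type SMC1 peaks (0.0410 to 0.108%) and 0.0258% of wild-type SA2 peaks (0.00709 to 0.0942%).

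**Figure D2:**
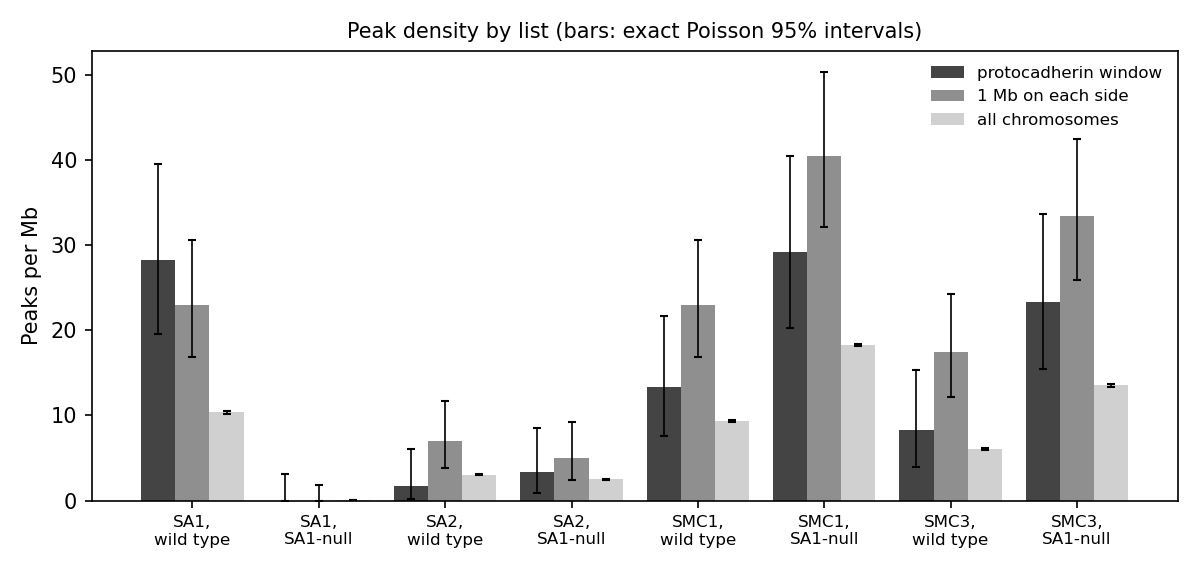
Peaks per Mb (vertical axis) for each list in the protocadherin window, in the 1 Mb on each side and over all chromosomes, with exact Poisson 95% intervals. In the window SA1 stands at 28.3 and wild-type SMC1 at 13.3 peaks per Mb, whereas both stand at 23 in the flanks.

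The imbalance was set against 2141 other windows of 1.2 Mb laid end to end along the chromosomes. The median such window held 12 SA1, 10 wild-type SMC1 and 6 wild-type SMC3 peaks. At least 34 SA1 peaks were present in 31 of them (1.45%). In those 31, wild-type SMC1 ranged from 22 to 57 peaks with a median of 38, and wild-type SMC3 from 12 to 40 with a median of 25. The protocadherin window, with 16 and 10, lay below the lowest of the 31 in both lists. It also lay below all 31 for wild-type SA2 (2 against 4 to 22), SA1-null SMC1 (35 against 47 to 96) and SA1-null SMC3 (28 against 37 to 72). SA1-null SA2 was the exception, since 3 of the 31 had at most 4 peaks. There were 2.13 SA1 peaks per wild-type SMC1 peak in the window. Among the 1486 windows with at least 5 wild-type SMC1 peaks the median was 1.07, and 27 (1.82%) were at or above that of the protocadherin window.

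**Figure D3:**
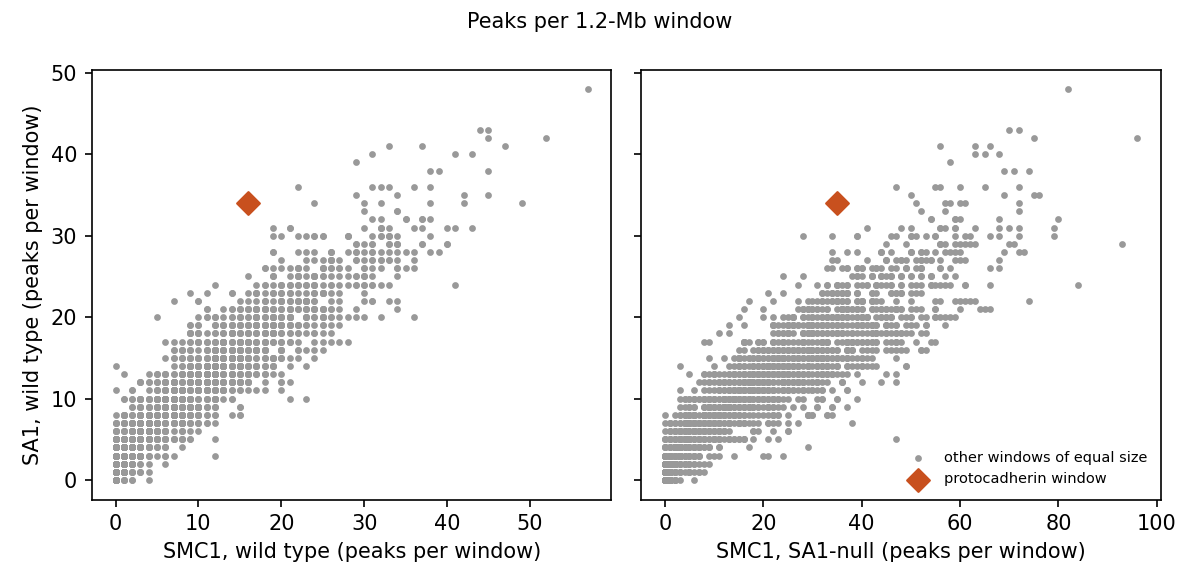
Wild-type SA1 peaks (vertical axis) against SMC1 peaks of wild-type cells (left) and of SA1-null cells (right) in windows of 1.2 Mb, each grey point being 1 of 2141 windows. The diamond is the protocadherin window, at 34 SA1 peaks with 16 wild-type and 35 SA1-null SMC1 peaks. Of the grey points, 31 stand at least as high and each of these lies further right in both panels, while 1588 (left) and 1663 (right) have no more SMC1 peaks than the diamond.

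Few SA1 peaks of the protocadherin window coincided with a peak of another wild-type list. A wild-type SMC1 peak overlapped 9 of the 34 by at least 1 bp (26.5%, interval 14.6 to 43.1%), against 71.7% of 46 in the flanks (57.5 to 82.7%) and 65.6% of the whole SA1 list. For wild-type SMC3 it was 6 of 34 (17.6%, 8.35 to 33.5%), against 67.4% in the flanks (53.0 to 79.1%) and 50.1% of the whole list. SA2, the alternative to SA1 on the ring, was present at 1 of 34 (2.94%, 0.521 to 14.9%), against 28.3% in the flanks (17.3 to 42.6%) and 20.1% genome-wide. In all 3 lists the interval of the window lay below that of the flanks and below the share over the whole list. Among the widest 50% of each list, which left 11 SA1 peaks in the window, this held for none of the 3. At 25 of the 34, SA1 stood without any other wild-type peak (73.5%, against 30.8% genome-wide). The SA1 and SA2 lists of wild-type cells were called against one input and all SMC lists against the other, in the window as elsewhere.

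The median width of the window's SA1 peaks was 486.5 bp, with an interval from the ranked widths of 396 to 540 bp. It was 531.5 bp in the flanks and 534 bp over the whole list, and both lay inside that interval. Width moves with overlap: SA1 peaks with a ring peak in either genotype had a median of 499 bp in the window and those without one 436 bp. The wild-type SMC1 share was therefore read within classes of SA1 width. Under 400 bp it was 2 of 11 (18.2%) in the window and 40.8% over the whole list. From 400 to 500 bp it was 1 of 9 (11.1%, interval 1.99 to 43.5%) and 54.5%. From 500 to 600 bp it was 3 of 7 (42.9%) and 70.1%, and at 600 bp or more 3 of 7 (42.9%) and 82.6%. The share was lower in the window in each of the 4 classes, and in the second and the last its interval left out the whole-list value.

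**Figure D4:**
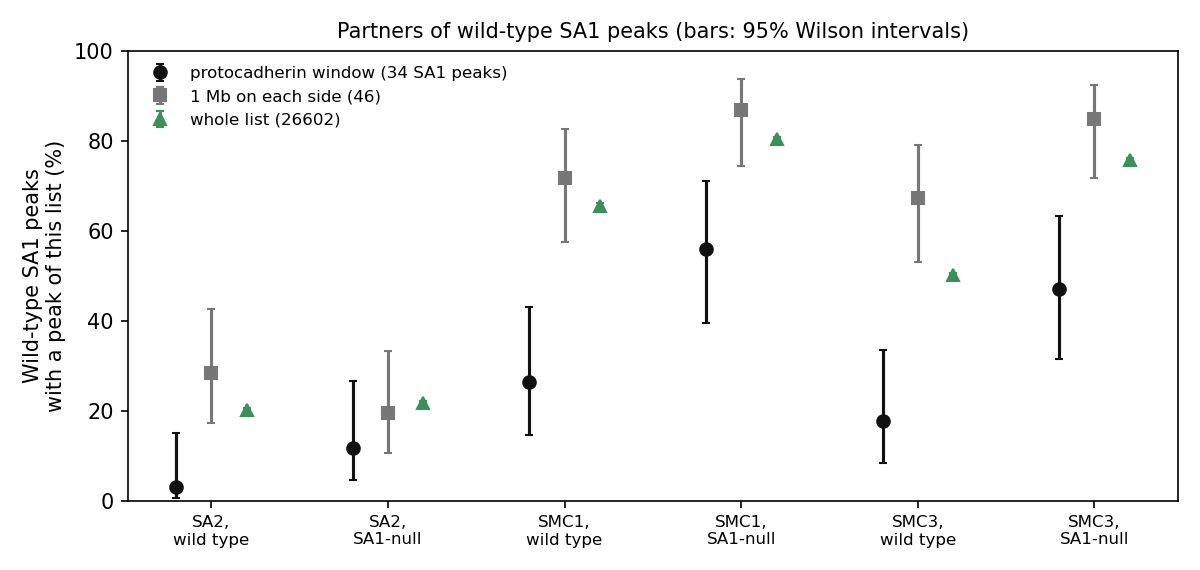
Percentage of wild-type SA1 peaks (vertical axis) that overlap a peak of each other list, for the 34 SA1 peaks of the protocadherin window, the 46 of its flanks and the whole SA1 list, with 95% Wilson intervals. For wild-type SMC1 the window stands at 26.5%, the flanks at 71.7% and the whole list at 65.6%.

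In SA1-null cells more of the window's SA1 positions carried a ring peak than in wild-type cells, although SA1 itself is missing there; the SA1-null ring lists were longer throughout the genome. SMC1 of SA1-null cells was called at 19 of the 34 positions (55.9%, interval 39.4 to 71.1%), against 87.0% in the flanks (74.3 to 93.9%) and 80.4% genome-wide. SMC3 of SA1-null cells was called at 16 (47.1%, 31.5 to 63.3%), against 84.8% in the flanks (71.8 to 92.4%) and 75.7% genome-wide. Both shares were again below those of the flanks, without overlap of the intervals. SA2 of SA1-null cells was called at 4 (11.8%, 4.67 to 26.6%), near the 19.6% of the flanks (10.7 to 33.2%) given the intervals, and 21.6% genome-wide. Taking both ring subunits, 9 of the 34 positions had a ring peak in both genotypes (26.5%, against 66.4% genome-wide). A further 11 had one in SA1-null cells and none in wild-type cells (32.4%, interval 19.1 to 49.2%, against 16.5% genome-wide and 15.2% in the flanks). The reverse case was not found (0 of 34, against 0.842% genome-wide), and 14 had no ring peak in either genotype (41.2%, against 16.3% genome-wide). Only positions without a wild-type ring peak can fall in the classes of 11 and 14, and both classes took larger shares in the window than genome-wide. The 32.4% is therefore no measure of a larger gain of ring peaks in SA1-null cells.

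Ring peaks were more numerous in SA1-null than in wild-type lists, in the window as elsewhere. The SMC1 list of SA1-null cells takes 2 replicates together, unlike that of wild-type cells. Dividing SA1-null by wild-type numbers gave 2.19 (35 to 16, interval 1.18 to 4.23) for SMC1, against 1.76 in the flanks (1.21 to 2.59) and 1.96 over the lists. For SMC3 it was 2.80 (28 to 10, 1.32 to 6.46), against 1.91 (1.25 to 2.97) and 2.24. For SA2 it was 2 (4 to 2, 0.287 to 22.1), against 0.714 (0.284 to 1.73) and 0.821. This rests on 6 peaks: with the window shorter by 100 kb at each edge it was 0.5, from 3 peaks. The intervals of window and flanks overlapped for all 3 antibodies, so a difference in these ratios was not detectable at such counts. Each of the 16 wild-type SMC1 peaks was called again in SA1-null cells (100%, interval 80.6 to 100%), as were 93.4% genome-wide, and so was each of the 10 wild-type SMC3 peaks (100%, 72.2 to 100%), as were 96.7% genome-wide. Seen from the SA1-null side, 14 of 35 SMC1 peaks had a wild-type SMC1 peak (40%, 25.5 to 56.4%, against 47.8% genome-wide), and 10 of 28 SMC3 peaks a wild-type SMC3 peak (35.7%, 20.7 to 54.2%, against 43.1% genome-wide).

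Joined where they overlapped, the peaks of the 8 lists formed 52 positions in the window and 93 in the flanks. SA1 alone accounted for 14 of the 52 (26.9%, interval 16.8 to 40.3%), against 4 of 93 in the flanks (4.30%, 1.69 to 10.5%) and 6.9% of all positions of the series. All 4 ring lists met at 9 (17.3%, 9.38 to 29.7%), against 34.4% in the flanks (25.6 to 44.5%) and 24.4% genome-wide. Ring lists without SA1 made up 17 (32.7%, 21.5 to 46.2%), against 48.4% in the flanks (38.5 to 58.4%) and 50.3% genome-wide. SMC1 and SMC3 were both called in SA1-null cells, and neither in wild type, at 10 positions (19.2%, 10.8 to 31.9%), a share near the 15.4% of the series. The opposite pattern was found at 0 of 52, as in the flanks, and at 0.0836% genome-wide.

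The peaks were not spread evenly. A run of 16 SA1 peaks, each within 15 kb of the next, stretched over 110.7 kb from 37815080 to 37925761. The distance between neighbouring peak centres was 6.06 kb in the median and ranged from 4.21 to 12.6 kb. The gap limit was chosen after the positions were seen. At this limit the SA1 list fell into 19260 runs over the genome, of which none other reached 16 peaks and the next longest had 12. The run kept its 16 peaks, and no other run was as long, with limits of 20 and 30 kb. With a limit of 10 kb it split, its longest piece had 7 peaks, and 11 runs of the list, that piece included, were at least that long.

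Few SA1 peaks of this stretch had a wild-type ring peak. Per Mb, wild-type SMC1 stood at 18.1 and wild-type SMC3 at 9.03, from 2 peaks and 1 peak. These lists had 9.34 and 6.06 over all chromosomes and 23 and 17.5 in the flanks. SA1 stood at 145 peaks per Mb, a value set partly by the choice of the stretch, which begins and ends at SA1 peaks. Wild-type SMC1 was called at 2 of the 16 SA1 peaks (interval 3.50 to 36.0%) and wild-type SMC3 at 1 (6.25%, 1.11 to 28.3%). SA1-null cells had SMC1 at 9 (56.2%, 33.2 to 76.9%) and SMC3 at 5 (31.2%, 14.2 to 55.6%). Every SA2, SMC1 and SMC3 peak of the stretch lay on an SA1 peak, a share set partly by choosing the stretch for its SA1 peaks. It rests on 1 SA2 peak in each genotype, 2 wild-type and 9 SA1-null SMC1 peaks, and 1 wild-type and 5 SA1-null SMC3 peaks. Over the whole lists, 72.5% of wild-type and 45.5% of SA1-null SMC1 peaks lay on an SA1 peak. For SMC3 the shares were 85.4% and 57.5%, and for SA2 69.1% and 90.6%. Of the 16 SA1 peaks, 7 had no peak in any other list (43.8%, 23.1 to 66.8%). This was near the 7 of 18 (38.9%) in the rest of the window, against 15.2% of the whole SA1 list. The 10 other runs of at least 8 SA1 peaks in the genome held 90 peaks, of which 42.2% had wild-type SMC1 and 25.6% wild-type SMC3. In SA1-null cells the shares of these 90 were 66.7% for SMC1 and 55.6% for SMC3. One of the 10 runs had a wild-type SMC1 share as low as the stretch.

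**Figure D5:**
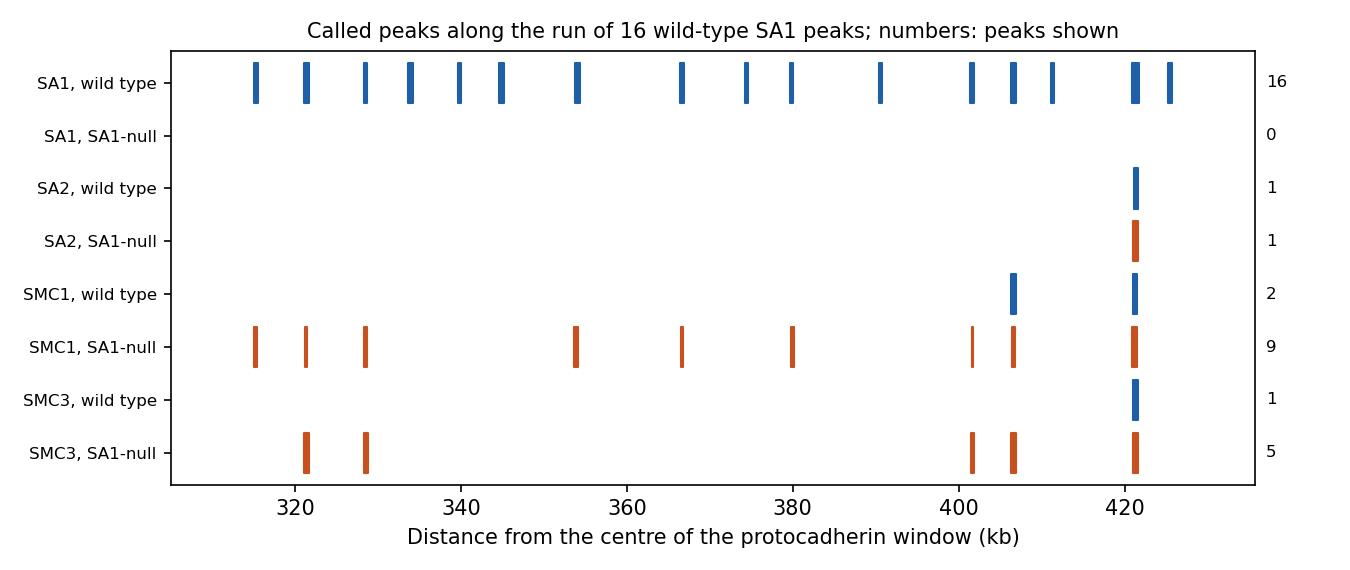
Peaks along the run of 16 wild-type SA1 peaks, one row per list, drawn to scale in width against distance in kb from the centre of the protocadherin window. Wild-type SMC1 has 2 peaks and wild-type SMC3 has 1, whereas SA1-null SMC1 has 9 and SA1-null SMC3 has 5, and all lie on SA1 peaks.

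A single position of the window was called in 7 lists, and it lay in this stretch, from 37920908 to 37921698. It was the fifteenth peak of the run. Its SA1 peak, 791 bp, was the widest of the window's SA1 peaks. The SA2 peak there was 458 bp wide with SA1, the wider of the 2 wild-type SA2 peaks, and 671 bp without it. SMC1 measured 428 and 625 bp in that order, and SMC3 555 and 597 bp. Such positions made up 4.13% of all positions of the series. The thirteenth peak of the run, from 37906341 to 37906904, was the other with wild-type SMC1, and its position also had SMC1 and SMC3 of SA1-null cells. Of the remaining 14 SA1 peaks, 3 had both ring subunits in SA1-null cells alone. They began at 37821061, 37828341 and 37901386, and their SA1 peaks were 650, 346 and 521 bp wide. At 4 more, which began at 37815080, 37853800, 37866451 and 37879689, SMC1 of SA1-null cells was the only ring peak.

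Left of the stretch, over 915.1 kb, wild-type SMC1 stood at 4.37 peaks per Mb and wild-type SMC3 at 3.28, against 9.34 and 6.06 over all chromosomes. The density of SA1 was 14.2 per Mb, against 10.4 over all chromosomes. These densities rest on few peaks and have no interval, so a difference from the genome was not established. SA1 had 13 peaks, wild-type SMC1 4, wild-type SMC3 3 and wild-type SA2 1, while the SA1-null lists had 13 for SMC1, 12 for SMC3 and 0 for SA2. From the left edge of the window, wild-type SMC1 and SMC3 had no peak for 477.8 kb, a gap not compared with other regions. SA1 had 8 peaks in that interval. Within it, 5 SA1 peaks lay between 37157311 and 37180483, and the first of these alone had another peak, of SA1-null SMC3. SA1 had its own longest gap, 229.8 kb, from 37377389 to 37607138. The 100-kb bin from 37600001 to 37700000 held 5 SA1 peaks, 3 wild-type SMC1 peaks and 1 wild-type SMC3 peak. SA1-null cells had 8 of SMC1 and 7 of SMC3 in this bin, which was picked after the counts were seen. Over the whole lists SMC1 and SMC3 had 1.96 and 2.24 times as many peaks in SA1-null cells. The wild-type SMC3 peak at 37729996 to 37730406 was the only one of the 10 without a wild-type SMC1 peak.

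Right of the stretch, over 174.2 kb, the ring was dense and accompanied SA1. SA1 had 5 peaks there, and wild-type SMC1 was called at all 5 (interval 56.6 to 100%) and wild-type SMC3 at 4. This part held 10 of the 16 wild-type SMC1 peaks and 6 of the 10 wild-type SMC3 peaks of the window. For SA1-null cells the numbers were 13 and 11. By contrast, wild-type SMC1 lay at 2 of 13 SA1 peaks left of the stretch and at 2 of 16 within it. Positions with the ring and without SA1 were frequent there too. The SMC1 peak of SA1-null cells from 37994891 to 37996756, 1866 bp, was the widest SMC1 peak of the window and wider than 99.8% of its list. It covered 3 wild-type SMC1 peaks of 479, 409 and 467 bp, with no SA1 or SA2 peak.

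SA2 was called at 5 positions of the window. Wild-type SA2 had 1 peak from 37000197 to 37000640, 444 bp wide, where no other list had one, besides that of the position in 7 lists. Hence 1 of 2 wild-type SA2 peaks lay on SA1, against 69.1% genome-wide and 13 of 14 in the flanks. The 4 SA2 peaks of SA1-null cells all lay at wild-type SA1 positions (100%, interval 51.0 to 100%), as did 90.6% genome-wide. One was in the 7-list position. The others, from 38011703 to 38012158, from 38036916 to 38037501 and from 38067567 to 38068254, lay right of the stretch, had SMC1 in both genotypes, and had no wild-type SA2 peak. One of the 4 therefore had a wild-type SA2 partner (25%, 4.56 to 69.9%, against 45.4% genome-wide), and 1 of the 2 wild-type peaks an SA1-null one (against 37.3% genome-wide). At the last of them, which held the widest SA2 peak of the window at 688 bp, the input of the SMC set also had an interval, from 38067343 to 38068164. This was the window's only input interval. Left of the stretch SA2 of SA1-null cells had no peak, and its gap from the left edge ran over 1021 kb. That list is short, with 2.47 peaks per Mb over all chromosomes, and the gap was not compared with other regions.

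The ring's company with SA proteins, counted from the ring, had lower values for SA1 in the window than over the whole lists, with wide intervals. Of the 16 wild-type SMC1 peaks, 9 lay on SA1 (56.2%, 33.2 to 76.9%, against 72.5% genome-wide), and of the 10 SMC3 peaks 6 did (60%, 31.3 to 83.2%, against 85.4% genome-wide). SA2 was at 1 of 16 and 1 of 10, against 20.2% and 26.9% genome-wide. In SA1-null cells SA2 was at 4 of 35 SMC1 peaks (11.4%, against 11.9% genome-wide) and 4 of 28 SMC3 peaks (14.3%, against 15.8% genome-wide), shares close to those of the lists. SMC1 and SMC3 went together as they did genome-wide, with SMC1 at 9 of the 10 wild-type SMC3 peaks (against 93.7% genome-wide) and at 26 of the 28 SA1-null ones (92.9%, against 88.8% genome-wide).

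As to the 10 positions with both ring subunits in SA1-null cells and none in wild type, they were found in each of the 3 parts. SA1 was present at 6: 3 in the stretch, and those beginning at 37376781, 37648761 and 37673018 to its left. The position at 37376781 lay within 500 bp of another, from 37377682 to 37378464, that had SMC1 and SMC3 in both genotypes. The other 4 of the 10 had no SA1 peak. They began at 37601658 and 37656227 on the left and at 38008878 and 38046619 on the right. At 38008878 the SMC3 peak, 971 bp, was the widest SMC3 peak of the window. The widest wild-type ring peaks, 1086 bp for SMC1 and 837 bp for SMC3, lay at 1 position, from 38011516 to 38012601, which 6 lists shared.

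The edges of the window were given by position and not by the data. Just outside the left edge, 0.011 kb away, a position from 36899228 to 36899989 was called by SA1, SA2, SMC1 and SMC3 of wild-type cells and by SMC1 and SMC3 of SA1-null cells. The first position inside, from 36949908, held 1 SMC1 peak of SA1-null cells, 288 bp wide. The last inside, from 38094984 to 38095733, had SA1 and all 4 ring lists. The next outside, from 38143873, lay 43.9 kb beyond the right edge and had SA1, SA2 and SMC1 of wild-type cells with SMC1 and SMC3 of SA1-null cells.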

How the data were processed

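The authors deposited 10 interval lists of 3 columns, chromosome, start and end positions, with no other value. Build mm9 and CASAVA 1.7 were used, per the submitters' processing notes. Sources used here give neither aligner nor peak caller, nor how reads that match several places were handled. Names of the deposited lists give a false discovery rate of 10 and the input of each: one for SA1 and SA2 of wild-type and SA2 of SA1-null cells, the other for SA1 of SA1-null cells and all SMC libraries. Starts, taken as 0-based, are printed as 1-based. Depth per sample is unknown.

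Peaks belonged to the window or its flanks when they overlapped them, and an overlap of 1 bp or more made peaks shared. Python 3.11.15, numpy 2.4.6, scipy 1.17.1 and matplotlib 3.10.9 were used. Overlap counts were tested on simulated data and equalled those of bedtools 2.31.1 for 90 of 90 ordered pairs of lists. The rule for named items took every position with SA2, with an input interval, or with both ring subunits in 1 genotype alone, the position called by SA2, SMC1 and SMC3 of both genotypes, the widest peak of each list, and the edges. Other positions named, the run and the partners of SA1 peaks were chosen after the data were seen. The window and the comparisons were chosen with earlier results of these data known.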

Additional observations from a re-analysis of the deposited data

How the results depend on the processing

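Across 42 results and 244 recomputed values, 227 stayed within the counting interval of the reported value (for counts, within 1.5 times) and 17 did not. Sharing by 50% of the shorter peak or within 500 bp, merging within 1000 bp, removal of background intervals, assignment by centre and flanks of 3 Mb moved none beyond that interval, but these intervals are wide, and with 3 Mb flanks directions turned within them. With flanks of 3 Mb the density ratios of SMC3 and SA2 of SA1-null cells rose above 1 (1.04 and 1.11), wild-type SMC1 and SMC3 came to 0.899 and 0.769, and SA1 to 1.79. Assignment by centre left wild-type SMC3 at 0.490, with an interval that reached past 1. Keeping the widest 50% of each list moved 12, with fewer peaks left by construction. Positions fell to 23, those with SA1 alone to 6 and those with both ring subunits in SA1-null cells alone to 2. The density ratio of SA1 fell below 1 (0.797), that of SA2 of SA1-null cells rose above it (1.67) and that of SMC1 of SA1-null cells became 0.444, and 71.4% of wild-type SMC1 peaks (of 7) had an SA1-null partner. SA2 was then at 0% of wild-type SMC1, SMC3 and SA1 peaks, and none (0%) of the SA2 peaks of SA1-null cells had a wild-type partner. SA2 and SMC1 of SA1-null cells were each at 27.3% of 11 SA1 peaks. The longest SA1 run was 2. In this setting wild-type SMC1 lay at 27.3% of the window's SA1 peaks, 65.2% in the flanks and 50.4% genome-wide. A window shorter by 100 kb at each edge, which leaves out 3 SA2 peaks of SA1-null cells, moved 4. The SA2 number of SA1-null over wild-type cells turned from 2 to 0.5, wild-type SMC1 and SMC3 were at 17.2% and 10.3% of SA1 peaks, and the density ratios of wild-type SMC3 and of SA2 of SA1-null cells came to 0.286 and 0.2. SA2 of SA1-null cells was then at 3.45% of SA1, 4.17% of SMC1 and 5% of SMC3 peaks, and its 1 peak had a wild-type partner (100%). A gap of at most 10 kb gave a run of 7. For 4 results the widest peaks gave no value. No alternative by score could be run. No paired analysis was possible because replicate numbers occur in 1 group only, whose 2 samples share a list; for the same reason no replicate could be left out.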
